A study of Mus musculus with 4 samples.

Results

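Ependymal cells are the ciliated cells that line the brain ventricles, and they were picked out here from single-cell RNA libraries of whole mouse brain by the genes detected in each cell. A cell was counted as ependymal when at least 4 of the 8 genes Foxj1, Ccdc153, Tmem212, Rarres2, Dynlrb2, Mia, Rsph1 and Fam183b had a UMI (unique molecular identifier, a tag that marks a single RNA molecule). It could have no more than 1 of 5 genes of endothelial cells, oligodendrocytes and microglia (Cldn5, Flt1, Mog, Tmem119, P2ry12) and no more than 2 of 5 genes of the choroid plexus epithelium (Kl, Clic6, Kcnj13, Sostdc1, Folr1). Of 10067 cells with at least 400 detected genes and at most 20% mitochondrial UMIs, 187 met this rule. They came from 12487 deposited barcodes.

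Whole brains of 4 C57BL/6J males aged 90 days (P90) were used, with 1 library made from each by the 10x Genomics 3′ version 2 method, and the labels put all 4 in 1 batch. Every brain was digested with enzymes. For 2 mice no inhibitor was present, and for the other 2 the transcription inhibitors actinomycin D and triptolide were in the perfusion, dissection and digestion buffers, with the translation inhibitor anisomycin in the dissection and digestion buffers. The question of the comparison was whether RNA made during dissociation alters the profile of these cells. With 2 animals a group and 1 library an animal, the spread between libraries holds the animal, its dissociation and its library together, and these cannot be told apart.

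Ependymal cells form a single layer of epithelium between the cerebrospinal fluid and the brain tissue. Each mature cell carries a tuft of motile cilia whose beat moves the fluid along the ventricle wall. A motile cilium is built on a ring of microtubule doublets, moved by dynein arms, steadied by radial spokes and a central pair, and supplied by intraflagellar transport, and its genes are switched on together by the transcription factor Foxj1 and the RFX factors. Mature ependymal cells are held not to divide.

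The members numbered 35 and 54 in the libraries without inhibitors, in replicates 1 and 2, and 51 and 47 in those with inhibitors. All 8 genes of the rule were detected in 115 of the 187 cells, 7 in 34 cells, 6 in 21 and 5 in 7. At the edge of the rule, the 10 cells with exactly 4 of the genes had a median of 1603.5 UMIs, whereas the 18 cells left just outside with 3 of the genes had a median of 2491 UMIs. A further 32 cells carried 4 or more of the genes but were excluded, 25 for choroid plexus genes and 7 for genes of the other types, and their median of 10644.5 UMIs was well above the 3353 of the members. No doublet caller was run beyond these exclusions, and 32 members had 1 of the 5 genes of other types.

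**Figure D1:**
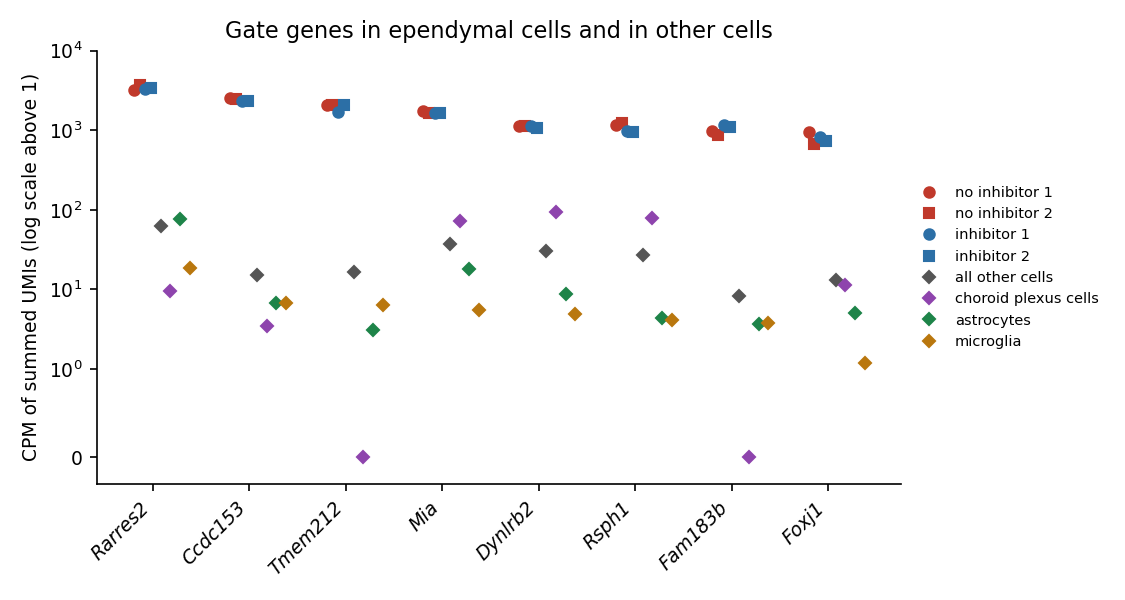
Levels of the 8 genes of the rule (CPM, log scale above 1), in the ependymal cells of each of the 4 libraries (red, no inhibitor; blue, inhibitor) and as 4-library means in all other cells, choroid plexus cells, astrocytes and microglia (diamonds). The 4 ependymal points of a gene lie close together, between 670 for Foxj1 and 3761 for Rarres2, and every diamond lies below 100.

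These 8 genes chose the cells, so their levels are a description. Levels are given as CPM, a gene's share of all UMIs summed over the ependymal cells of a library, on a scale where the whole sum is 1000000, and the 3′ method counts a molecule once whatever the length of its gene. Rarres2, which encodes the secreted chemoattractant chemerin, had 3227 and 3761 CPM without inhibitors and 3338 and 3437 CPM with them. Ccdc153, a coiled-coil protein gene widely used as an ependymal marker (chr9:44240676-44247306, plus strand, GRCm38), had 2519 and 2453 against 2359 and 2313 CPM. Foxj1, the forkhead factor of motile cilia (chr11:116330704-116335399, minus strand), had 952 and 670 against 836 and 728 CPM. The 4 libraries thus held each gene at a like level, and no other gene of the rule ranged wider relative to its mean than Foxj1.

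The remaining genes of the rule were as even. Tmem212, a predicted membrane protein gene, averaged 1994 ± 185 CPM (SD, n = 4 libraries) and Mia, which encodes a small secreted protein, 1677 ± 38.8 CPM. Dynlrb2, a roadblock-type dynein light chain, averaged 1117 ± 24.2 CPM, Rsph1, a radial spoke head protein, 1087 ± 138 CPM, and Fam183b, a small protein of ciliated cells, 1032 ± 131 CPM. In all other cells together the 8 genes lay between 8.18 CPM for Fam183b and 61.8 CPM for Rarres2.

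Droplets take up free RNA, so the share of cells with a UMI was set beside cell types that should lack the gene. Ccdc153 had a UMI in 96.8% of ependymal cells, 1.20% of choroid plexus cells, 1.08% of astrocytes and 1.02% of microglia. These comparison classes were picked by marker genes in the same way (166, 2034 and 3342 cells) and had median depths of 2329.5, 1559 and 1401 UMIs, against 3353 in the ependymal cells. With every cell thinned to 1000 UMIs, Ccdc153 was still found in 86.1% of 173 ependymal cells, and in 0 of 160 choroid plexus cells, 0.787% of astrocytes and 0.764% of microglia. Dynlrb2, Rsph1 and Mia were detected in 21.7%, 17.5% and 13.9% of choroid plexus cells, above their 0.628 to 2.26% in astrocytes and microglia. Each comparison class, astrocytes and microglia included, holds at most 1 of the 8 genes a cell by its own rule. All these shares, those of Ccdc153 among them, were thus limited by the rules. Only 166 of the 350 cells with at least 3 choroid plexus genes met the choroid plexus rule. Among the 350 cells, 166 had a UMI of Dynlrb2, 152 of Rsph1, 134 of Mia and 10 of Ccdc153.

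The promoters of several of these genes hold the letters of the core that RFX factors bind. The letters GTTGCC and their complement GGCAAC were searched on both strands from 250 bases before to 50 after each start site in RefSeq (GRCm38.p6). They were found in 4110 of 32841 promoters, or 12.5%. Of the 8 genes of the rule, 5 had a promoter in the table, and Ccdc153, Dynlrb2 and Fam183b held the letters while Mia and Tmem212 did not. The stretches around the match are shown for these 3 genes and for Hydin, Sntn, Tekt1, Enkur and Mlf1, structural genes of the cilium described further on, in the direction of the gene, 5′ to 3′, with 1 match in capitals.
Ccdc153, chr9:44240498-44240558, plus strand: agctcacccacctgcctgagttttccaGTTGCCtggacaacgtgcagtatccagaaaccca
Dynlrb2, chr8:116504937-116504997, plus strand: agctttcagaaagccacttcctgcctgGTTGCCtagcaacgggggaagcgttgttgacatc
Fam183b, chr11:58801943-58802003, minus strand: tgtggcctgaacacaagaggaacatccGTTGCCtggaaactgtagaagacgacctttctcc
Hydin, chr8:110266937-110266997, plus strand: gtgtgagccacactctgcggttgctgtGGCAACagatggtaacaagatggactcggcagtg
Sntn, chr14:13670783-13670843, plus strand: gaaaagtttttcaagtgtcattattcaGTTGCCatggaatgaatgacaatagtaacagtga
Tekt1, chr11:72361864-72361924, minus strand: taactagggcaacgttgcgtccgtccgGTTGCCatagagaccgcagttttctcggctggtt
Enkur, chr2:21205366-21205426, minus strand: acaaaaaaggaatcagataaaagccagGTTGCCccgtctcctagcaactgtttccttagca
Mlf1, chr3:67373965-67374025, plus strand: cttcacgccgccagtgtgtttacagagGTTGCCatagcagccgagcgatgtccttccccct
The match in Ccdc153 begins at position -152 from the start site, that in Sntn at -66, that in Dynlrb2 at -51 and those in Fam183b, Tekt1 and Hydin at -16, -15 and -13. Fam183b and the Tekt1 promoter shown hold 2 matches each, and another promoter of Tekt1 holds none.

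Across the lists of structural genes of the motile cilium, 72 of the 89 listed genes had a promoter in the table, and 33 of their 80 promoters (41.2%) held the RFX-type letters, against 12.5% of all promoters. The share was 54.3% of 35 promoters for the other axonemal genes, 34.6% of 26 for the dynein arms and 26.3% of 19 for the spokes and central pair. It was 42.1% of 38 promoters for intraflagellar transport. Outside the cilium it was 0 of 17 for the secreted proteins, 0 of 11 for astrocyte markers and 2 of 23 for immediate-early genes. For heat shock genes it was 3 of 15 and for choroid plexus markers 3 of 7, so the letters were not confined to ciliary genes. Among the 100 genes with the highest level in ependymal cells relative to all other cells, 30 of 85 promoters (35.3%) held the letters. The forkhead-type letters GTAAACA, searched in the same way, were in 3.65% of all promoters and in 6 of 80 (7.5%) of the structural list. These counts describe letters in a fixed window, and a gene with several start sites has several promoters.

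The libraries themselves were alike in depth. They held 5134359 to 7529804 UMIs in all, and the ependymal cells 151240 to 252328 UMIs a library, with medians of 1669 to 1829 genes and 6.14 to 7.62% mitochondrial UMIs a cell. Pairs of libraries shared 9 to 13 cell barcodes, and none of these was an ependymal cell in both. Library no inhibitor 2 stood apart. A chi-square of its ependymal counts over genes against each of the other 3 libraries came to 1.77 to 1.99 times its degrees of freedom, where pairs among those 3 gave 1.12 to 1.18. It held 3315 UMIs of 5 erythrocyte genes where the others held 20 to 49, and 1905 of the 3315 came from 1 cell.

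Ependymal cells made up 1.56% of the cells of library no inhibitor 1 (95% exact binomial interval 1.09 to 2.16%), 1.92% of no inhibitor 2 (1.44 to 2.49%), 2.40% of inhibitor 1 (1.79 to 3.14%) and 1.63% of inhibitor 2 (1.20 to 2.17%). These intervals cover counting error only. The groups overlapped, at 1.74 ± 0.253% without and 2.02 ± 0.541% with inhibitors (SD, n = 2), and the exact permutation test, on both sides, gave p = 0.667, where 2 animals against 2 can give no p below 0.333. The median cell had 3045 and 3547.5 UMIs in the 2 libraries without inhibitors, against 3617 and 3018 UMIs, and these groups overlapped too (exact permutation p = 1).

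The next paragraphs follow the cell from its transcription factors to its surface, with levels as CPM and all comparisons with other cells given as a description, since the cells were chosen by their expression. Of 1743 genes with at least 100 CPM in ependymal cells, 717 were more than 2-fold, 400 more than 5-fold and 277 more than 10-fold above the mean of all other cells.

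Among 12 transcription factors and regulators of multiciliated cells, Foxj1 was by far the highest, and Mcidas, Gmnc and Ccno were at or near 0. Foxj1 stood at 796 CPM, 60.5-fold above the other cells. Myb, which acts in multiciliated cell differentiation, was detected in 38.5% of the cells at 147 CPM and 70.2-fold above the others. Rfx3 and Rfx2, RFX factors that activate ciliary genes, had 141 and 98.9 CPM, 6.64-fold and 29.5-fold above the others. Trp73, which encodes the p53 relative p73 that acts upstream of Foxj1, had 64.8 CPM. E2f5 and E2f4, E2F factors that act with Mcidas and Gmnc, had 32.3 and 25.2 CPM and were detected in 11.8% and 9.09% of the cells. Mcidas, a coactivator that starts the multiciliated programme, had 0 UMIs, its relative Gmnc 12 UMIs in 11 cells, and Ccno, needed for centriole amplification, 5 UMIs in 5 cells. A count of 0 allows up to 3 UMIs over the members.

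The dynein arms drive the beat, and 31 of the 32 listed arm, docking and assembly genes were more than 10-fold above the other cells. Dnah12, an inner arm heavy chain (chr14:26693274-26891703, plus strand), had 364 CPM, 379-fold above the mean of other cells, and had 0 UMIs in all 166 choroid plexus cells, 2034 astrocytes and 3342 microglia. The outer arm heavy chains Dnah5, Dnah9 and Dnah11 had 272, 233 and 112 CPM, and the inner arm heavy chain Dnah6 had 283 CPM. Dnali1, an inner arm light intermediate chain, had 347 CPM, 73.7-fold above the others. The intermediate chains of the outer arm, Dnaic2 and Dnaic1, had 163 and 95.6 CPM, and the assembly factor Zmynd10 had 173 ± 5.18 CPM (SD, n = 4).

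The spokes and the central pair set the pattern of the beat. Of 23 listed genes 22 had a UMI, and all 22 were more than 10-fold above the other cells. After Rsph1, the highest was Cfap54, a central pair projection protein, at 314 CPM, followed by Nme5 of the radial spoke at 282 CPM and, after Spag6l, the spoke head genes Rsph9 and Rsph4a at 267 and 265 CPM. Hydin, a very large central pair protein (chr8:110266977-110610253, plus strand), had 212 CPM and Spag17, another central pair protein, 159 CPM, 166-fold and 299-fold above the others. Spag6l had 272 CPM while its near-identical relative Spag6 had 0 UMIs, so reads that fit both genes make these 2 values uncertain.

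The other axonemal genes included the highest ciliary genes of the cells. Behind Ccdc153 came Tppp3, a tubulin-binding protein, at 1256 CPM, Fam183b, Meig1 at 744 CPM, and Cfap126, which positions basal bodies, at 686 CPM. Tppp3 was only 8.53-fold above the other cells, whereas Sntn, which encodes the ciliary tip protein sentan, was at 312 CPM 153-fold above them. Tekt1, a tektin of the microtubule doublet, had 338 CPM, Enkur, a calmodulin-binding protein, 276 CPM, and Mlf1 487 CPM. Of the 34 genes on this list, 29 were more than 10-fold above the other cells.

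As a single group of 89 genes, the arms, spokes and axoneme summed to 23664 and 22562 CPM without inhibitors and 23377 and 22829 CPM with them, where the other cells had 745 CPM. The median gene was 53.0-fold above the other cells. In single cells the group took a median of 2.39%, 2.41%, 2.36% and 2.41% of the UMIs in the 4 libraries, in the order no inhibitor 1 and 2, inhibitor 1 and 2, and ranged from 0.258% to 4.61% over the 187 cells. The libraries were thus nearly equal, and the spread lay between cells. The lists include Dynlrb2, Rsph1, Ccdc153 and Fam183b, which helped to choose the cells. Values without these genes were not computed, so the sums, ratios and counts of these lists were partly set by the rule.

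**Figure D2:**
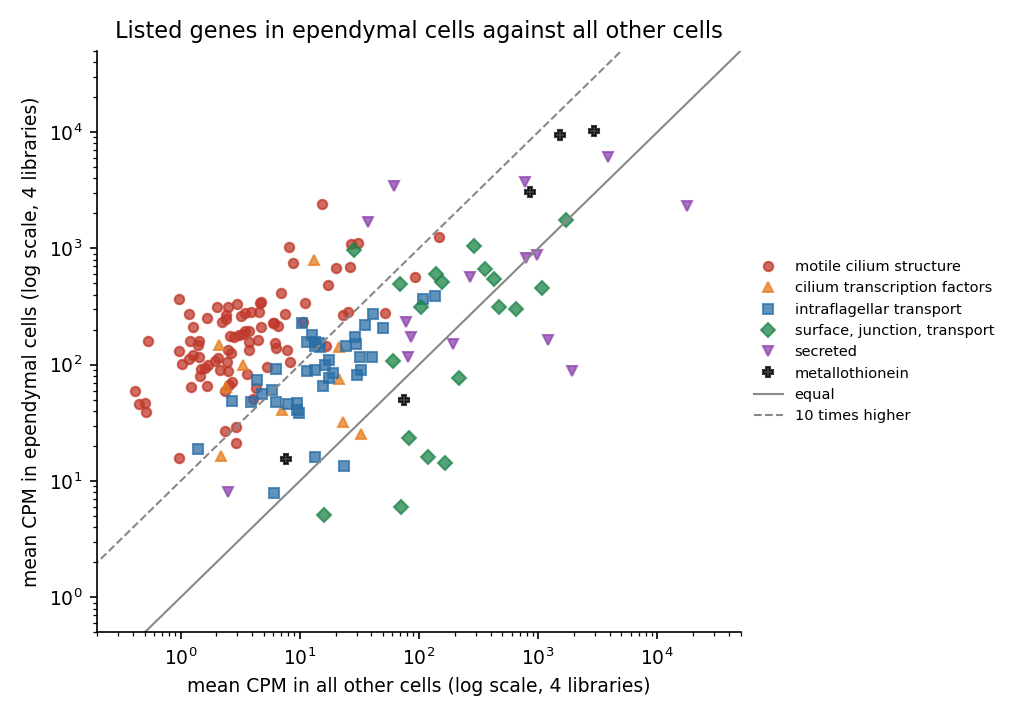
Mean CPM over the 4 libraries in ependymal cells (vertical, log scale) against all other cells (horizontal, log scale) for genes of 6 groups with a UMI in both. Some genes of the rule are among them. Structural genes of the motile cilium (red circles) lie almost all above the dashed line of 10-fold, with a median of 53.0-fold, while intraflagellar transport genes (blue squares, median 6.01-fold) straddle it and surface genes (green) scatter about the line of equal levels.

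Intraflagellar transport carries tubulin and other cargo in every cilium, motile or not, and the ratios of its genes to the other cells were lower. Of 42 listed genes 13 were more than 10-fold above the other cells, with a median of 6.01-fold. Ift20 and Arl3, a subunit that also acts at the Golgi and a small GTPase of ciliary cargo release, were highest at 386 and 365 CPM but only 2.85-fold and 3.39-fold above the others. Ttc30b and Ift88, subunits of the B complex, had 226 and 92.2 CPM at 21.7-fold and 14.5-fold. Dync2li1 and Dync2h1, chains of the retrograde motor, had 158 and 143 CPM.

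Planar polarity proteins align the cilia of neighbouring cells. The receptor Fzd3 had 309 ± 50.04 CPM (SD, n = 4), 19.4-fold above the others, Ccdc88c, a Dishevelled-binding protein, had 161 CPM, and the atypical cadherin Celsr1 had 96.6 CPM, 34.2-fold above the others. Their relatives Celsr2 and Vangl2 lay at 31.7 and 22.8 CPM, 1.43-fold and 1.15-fold.

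On the surface, ependymal cells shared genes with astrocytes at other levels. The glycoprotein Cd24a stood out at 961 CPM, 33.5-fold above other cells, with 4.49 CPM in astrocytes. The water channel Aqp4 had 600 CPM in ependymal cells and 721 CPM in astrocytes, and the potassium channel Kcnj10 had 311 and 342 CPM. Connexin 43 (Gja1) and the glutamate transporter Slc1a3 were lower in ependymal cells than in astrocytes, at 544 against 2074 and 302 against 3011 CPM. S100b, a calcium-binding protein, was higher, at 1049 against 505 CPM. Cadherin 2 (Cdh2) had 108 CPM, while Cdh1 had 0 UMIs in any member.

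Among secreted proteins, the lipid carrier Apoe had 6052 ± 868 CPM (SD, n = 4), less than the 13460 CPM of astrocytes, and clusterin (Clu) had 3685 ± 577 CPM, against 2882 CPM in astrocytes and 1302 CPM in choroid plexus cells. Cst3, a protease inhibitor that is abundant in microglia, had 2294 CPM, 0.128 times its level in the other cells. The metal-binding metallothioneins Mt1, Mt3 and Mt2 had 10293 ± 701, 9452 ± 326 and 3082 ± 347 CPM. Mt3 was 6.22-fold above the other cells, and the 5 genes of this list took a median of 2.46% of the UMIs of a cell. Astrocytes had 10563 CPM of Mt1 and 3540 CPM of Mt2, above the ependymal means, and 5225 CPM of Mt3, below it. The list summed to 21727 to 24789 CPM in ependymal cells and 17631.7 to 20966.5 CPM in astrocytes.

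The highest genes of all were Malat1, a nuclear long noncoding RNA, at 33864 CPM, and Dbi, which encodes an acyl-CoA-binding protein, at 17049 ± 1093 CPM (SD, n = 4), 11.6-fold above other cells. Nnat, an imprinted membrane proteolipid gene, had 5068 ± 313 CPM at 26.7-fold, and Chchd10, a mitochondrial protein gene, 3623 CPM. The 20 genes with the highest ratio to other cells among those with at least 100 CPM ran from 452-fold to 159-fold. They included the ciliary genes Dnah12, Spag17, Dnah5 and Hydin, the transport gene Ttc21a and the dynein-regulatory gene Tcte1. Others were the keratin Krt15 at 291-fold, the urea transporter Slc14a2 at 175-fold and the cadherin-related Cdhr3 at 169-fold. The remaining ones were Frmpd2, Fam216b, Stmnd1, Prr29, Ppp1r32, Uckl1os, 1700019G24Rik and 4 predicted genes, Gm48570, Gm40761, Gm10714 and Gm21149. These ratios rest on few UMIs in the other cells, from 5 for Gm40761 to 58 for Gm10714.

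Most marker lists of other types the cells could hold were low. The 8 microglial genes summed to 152 to 305 CPM over the 4 libraries, against 30809 to 34117 CPM in microglia. The 10 choroid plexus genes summed to 2239 to 4987 CPM, against 244637 to 348185 CPM in choroid plexus cells, and of these Kl, Kcnj13 and Aqp1 had 1, 2 and 1 UMI in all 187 cells. Ttr was the largest member of this sum (1103 of 2239 CPM in library inhibitor 1 and 3561 of 4987 CPM in inhibitor 2), was found in 98.4% of ependymal cells, 98.3% of astrocytes and 97.5% of microglia, and 338 of its 602 UMIs in library inhibitor 2 came from 1 cell. Another pair of genes of that list were instead above the other cells, 1500015O10Rik at 967 CPM (3.75-fold) and the folate receptor Folr1 at 135 CPM (2.39-fold). They were detected in 71.7% and 33.7% of the members, and Folr1 is among the choroid plexus genes of which the rule admitted at most 2 in a cell.

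Progenitor and tanycyte markers were also examined, as these cells share the ventricle wall. Dcx, Mki67 and Top2a, genes of neuroblasts and dividing cells, had 0 UMIs in all members, and Cd24a made up most of the list's sum of 976 to 1210 CPM. Of 8 tanycyte genes, Slc17a8 had 0 UMIs, and Rax, Crym and Frzb had 4, 6 and 7 UMIs, all in library no inhibitor 2 and in 2, 3 and 2 cells. Col23a1 had 2 and 17 UMIs without and 6 and 0 with inhibitors, in 9 cells, and Lhx2 had 0 and 6 against 1 and 6, in 10 cells. The list summed to 72.7 to 238 CPM, against 44.6 to 103 CPM in the other cells. In library no inhibitor 2, 23 of the 60 UMIs of the list came from 1 cell. Scn7a, a sodium channel relative, was at 92.3 CPM 54.3-fold above the other cells, and had a UMI in 28.3% of ependymal cells against 0.246% of astrocytes. Thinned to 1000 UMIs these shares were 10.4% and 0.281%. The sums of endothelial, oligodendrocyte, neuronal, mural and fibroblast markers ran from 5.92 CPM for the lowest fibroblast value to 681 CPM for the highest neuronal one. Meg3 with 541 CPM led the neuronal list, in which Rbfox3 had 0 UMIs. The rule itself required at least 4 ependymal genes and capped the genes of other types that it names, so low counts of those genes were set by the choice of cells. The erythrocyte list is the exception among the other types, at 13138 CPM in library no inhibitor 2. High sums of this list were not particular to ependymal cells. Over the 4 libraries it ran from 142 to 26407.5 CPM in microglia, 178 to 20006 CPM in choroid plexus cells and 188 to 10924 CPM in astrocytes.

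Between mice dissociated without and with inhibitors, no gene of the ependymal cells passed the test. Of 3872 genes tested with edgeR on UMIs summed per animal, 0% passed an adjusted p under 0.05 with an absolute log2 fold change over 0.58, and DESeq2 passed none either. At an unadjusted p under 0.05, edgeR gave 179 genes and DESeq2 9. Of those 179, 85 were higher without inhibitors (2.2% of the genes tested) and 94 lower (2.43%). The median log2 fold change, no inhibitor over inhibitor, was 0.0028 over all genes, and 50.5% lay above 0.

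The structural genes of the motile cilium followed all genes closely. Of the 89, 81 passed the filter on low counts, and none passed the test. The log2 fold change was above 0 for 35 and below it for 46, with a median of -0.021 and a range of -0.79 to 0.63. At an unadjusted p under 0.05, 2 were higher and 2 lower. The 2 groups of animals did not overlap in 11 of the 81 genes on the higher side, where 15.5% of all genes tested did not overlap, and in 15 on the lower side, where this held for 16.1% of all genes.

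**Figure D3:**
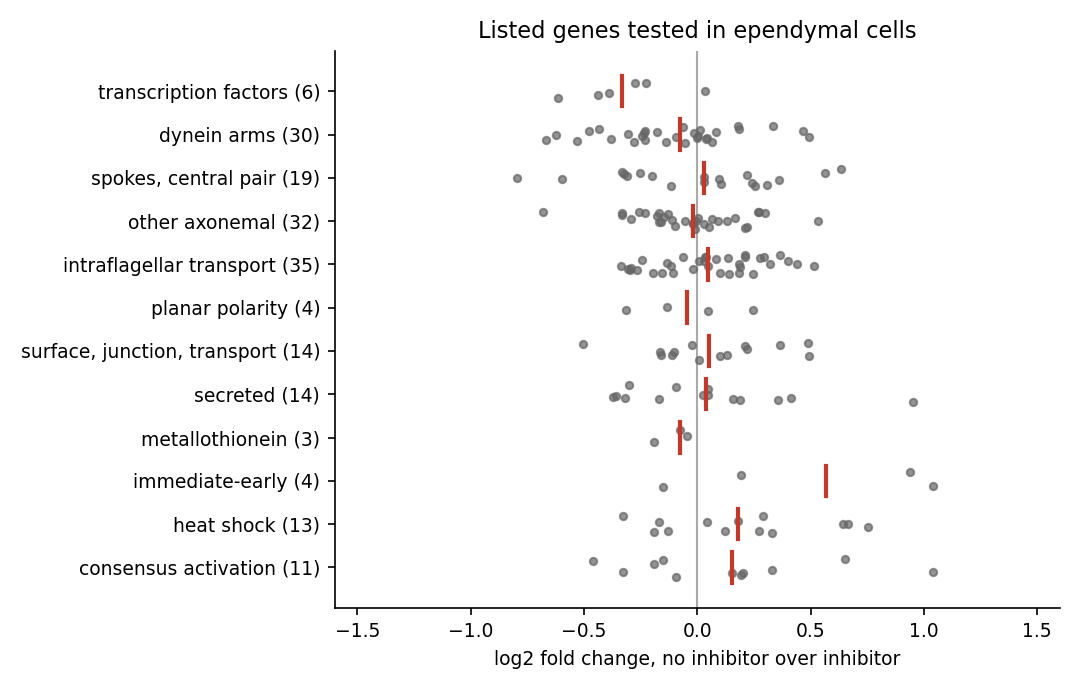
The log2 fold change, no inhibitor over inhibitor, of each tested gene (grey points) in 12 lists, with the median of each list as a red bar and the number of tested genes in brackets. The structural and transport lists of the cilium centre near 0, with medians of -0.079 for 30 dynein arm genes and 0.049 for 35 transport genes. The 6 transcription factors have a median of -0.33, and the few tested immediate-early and heat shock genes have medians of 0.57 and 0.18.

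The 4 structural genes past an unadjusted p of 0.05 are given as values that did not pass the adjusted test. Hydin had 152 and 155 CPM without and 217 and 325 CPM with inhibitors (log2 fold change -0.79 ± 0.28, SE, edgeR unadjusted p = 0.00652). Dnah12 had 364 and 242 against 420 and 432 CPM, a log2 fold change of -0.53 ± 0.21 (SE). Spag17 had 192 and 194 against 120 and 130 CPM, and Sntn had 357 and 380 against 268 and 243 CPM, log2 fold changes of 0.63 ± 0.31 and 0.53 ± 0.22 (SE). In all 4 genes the animals of the groups did not overlap, and 2 lay on each side.

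Of the 6 transcription factors tested, 5 were lower without inhibitors, with a median of -0.33, and the lowest was Rfx2 with 92.6 and 67.4 against 129 and 106 CPM. None of these reached an unadjusted p of 0.05. Among 35 tested transport genes 22 were higher, and the median was 0.049. Surface and secreted lists had medians of 0.054 and 0.037 over 14 genes each, and planar polarity -0.044 over 4. Apoe had 4900 and 5865 against 6763 and 6679 CPM (log2 fold change -0.32 ± 0.13, SE) and Clu 2856 and 3733 against 4118 and 4034 CPM (-0.30 ± 0.14). The groups did not overlap for these genes, which had unadjusted p values of 0.021 and 0.0401 with edgeR. Mt1, Mt2 and Mt3 had log2 fold changes of -0.19 to -0.046.

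Immediate-early genes are switched on within minutes of a stimulus and were of interest because dissociation can start them. In ependymal cells their summed level was 1144 and 919 CPM without inhibitors and 956 and 941 CPM with them, so that the groups overlapped. In the other cells of the 4 libraries the same 25 genes summed to 2148 to 3845 CPM. By class, they summed to 158 to 314 CPM in choroid plexus cells, 391 to 561 CPM in astrocytes and 1378 to 9055 CPM in microglia. The ependymal sums thus lay above those of choroid plexus cells and astrocytes and below those of microglia. Only 4 of the 25 passed the filter on low counts. Jund, an AP-1 subunit and the highest gene of the list, had 496 and 491 against 549 and 550 CPM, lower without inhibitors. It made up a large part of the sums, so their overlap rests in part on this gene. Sums without it were not computed. Jun had 172 and 87.2 against 106 and 106 CPM. The matricellular gene Cyr61 had 79.3 and 55.5 against 36.9 and 29.6 CPM and the phosphatase gene Dusp1 72.7 and 59.4 against 23.1 and 41.4 CPM, log2 fold changes of 0.94 ± 0.55 and 1.04 ± 0.58 (SE) that did not reach an unadjusted p of 0.05. The median of the 4 was 0.57, and it moved to -0.043 without library no inhibitor 1 and to 1.13 without no inhibitor 2.

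Most immediate-early genes had too few UMIs in ependymal cells to be tested. Fos had 13 and 6 UMIs in the libraries without inhibitors, in 4 and 3 cells, and 0 and 1 UMIs in those with them, and 9 of the 13 came from 1 cell. With no filter on low counts, edgeR gave Fos an unadjusted p of 5.5e-05 and an adjusted p of 0.402. Fos was detected in 4.28% of ependymal cells, 1.97% of astrocytes and 8.68% of microglia, and in 1.73%, 1.29% and 8.19% with every cell thinned to 1000 UMIs. Junb had 0 and 3 UMIs without and 1 and 0 with inhibitors, in 2.14% of ependymal cells against 35.9% of microglia (0% against 30.9% thinned), and Egr1 had 1, 2, 1 and 0 UMIs in the same order. Socs3, a feedback inhibitor of cytokine signalling, had 2 and 5 UMIs without inhibitors and 0 and 0 with them. Fosb, Egr3 and Rgs1 had 0 UMIs in every library.

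The 2 activation lists of the study held no gene that passed the test. The consensus list of 25 genes, which the study drew from sorted microglia in a separate experiment, had 11 genes tested in ependymal cells, of which 6 were higher, with a median log2 fold change of 0.15. The list of 19 genes that the study chose on these same 4 libraries is not independent evidence of its direction. In it 5 of its genes were tested, 2 were higher and the median was -0.11. Hist1h1c, a linker histone gene, had 284 and 341 against 157 and 254 CPM, a log2 fold change of 0.65 ± 0.25 (SE) at an edgeR unadjusted p of 0.0134.

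Heat shock chaperones were high in ependymal cells of all libraries, and highest in no inhibitor 2. The 13 genes summed to 12556 and 19241 CPM without inhibitors and 12898 and 12736 CPM with them, whereas the other cells had 3108 to 3897 CPM. The cytosolic chaperone Hsp90aa1 stood at 5045, 7407, 4866 and 5076 CPM in that order, 12.7-fold above the other cells, and its partners Hsph1 and Hspa4l, of the Hsp110 family, at 605 and 573 CPM were 12.96-fold and 14.2-fold above them. The level in library no inhibitor 1 was thus like that of both inhibitor libraries. In single cells the list took a median of 1.21%, 1.80%, 1.31% and 1.16% of the UMIs.

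None of the 13 heat shock genes passed the test, 9 lay on the side of higher values without inhibitors, and the median was 0.18. Hspd1, the mitochondrial chaperonin, had 304 and 483 against 254 and 225 CPM (log2 fold change 0.76 ± 0.23, SE, edgeR unadjusted p = 0.00178), and the cofactor Dnaja1 had 456 and 919 against 480 and 420 CPM (0.65 ± 0.26). Without library no inhibitor 2 the list median was -0.029, 38.5% of the genes were higher and 0 genes of all those tested passed the edgeR test. Without no inhibitor 1, a fit in which the lone library no inhibitor 2 is assumed to vary like the other group, the list median was 0.39 and 29 genes passed the test, 25 higher and 4 lower. Among them were the chaperones Hspe1, Hsp90aa1, Dnaja1, Hspa8 and Hspd1, 4 haemoglobin genes, and the astrocyte markers Slc1a2 and Aldoc. The summed erythrocyte markers of 13138 CPM in that library, against 92.3 to 324 CPM in the others, and the summed astrocyte markers of 1534 CPM, against 1011 to 1213 CPM, moved with it, and their part in the chaperone values was not tested.

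**Figure D4:**
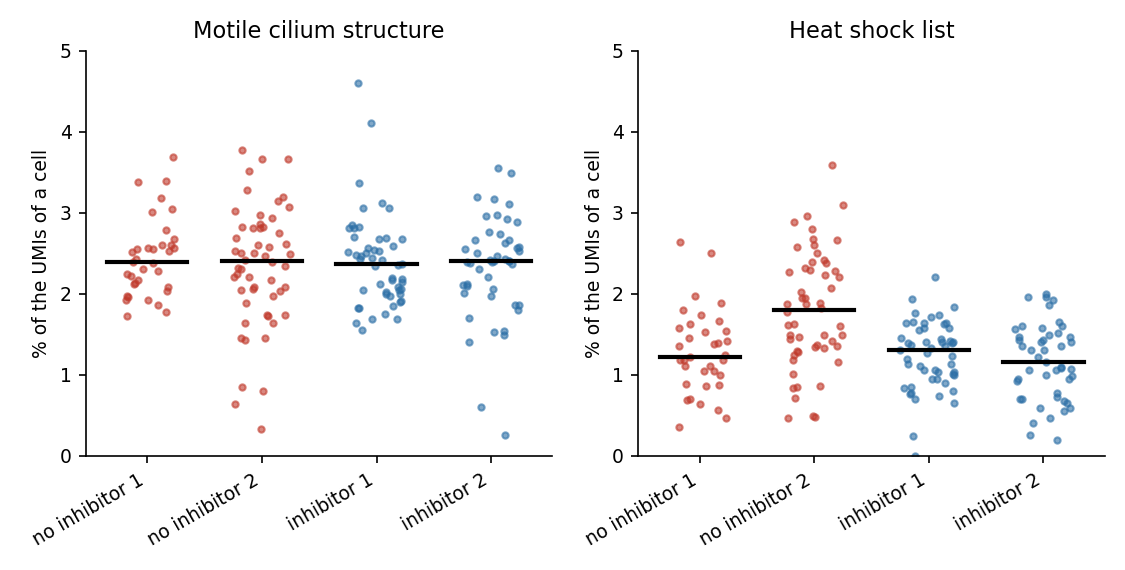
Share of the UMIs of each ependymal cell (1 point a cell, %) that fell on the 89 structural genes of the motile cilium (left) and on the 13 heat shock genes (right), by library, with the median as a black bar. The ciliary medians lie between 2.36% and 2.41% in all 4 libraries, while the heat shock median is 1.80% in no inhibitor 2 and 1.16 to 1.31% in the others.

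The 10 genes with the smallest unadjusted p among those whose groups did not overlap are given as values, in CPM over the UMIs of the tested genes, scaled by edgeR's TMM factors, so that they run above the plain CPM. The predicted gene Gm21149, also among the 20 highest ratios to other cells, had 270 and 335 without inhibitors and 164 and 84.5 with them, a log2 fold change of 1.26 ± 0.31 (SE) with an edgeR adjusted p of 0.659. Complement C3 had 7.71 and 38.2 against 65.4 and 155 (-1.97 ± 0.55), and 12 of its 22 UMIs in library inhibitor 2 came from 1 cell. The microglial complement gene C1qa had 84.8 and 133.8 against 38.2 and 42.3 (1.498 ± 0.44). The myelin gene Mbp had 162 and 258 against 338 and 423 (-0.79 ± 0.26). The others were B230118H07Rik, the actin-capping gene Capg and Hspd1 on the higher side and Fam204a, Nudcd3 and Dcaf7 on the lower side, and all 9 after Gm21149 had an edgeR adjusted p of 0.982.

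The microglial markers stood beside C1qa as follows. Their sum of 8 genes in ependymal cells was 258 and 305 CPM without inhibitors against 152 and 154 CPM with them, 2 of the 8 were tested and both were higher, and the defining genes Tmem119 and P2ry12, which the rule limits, had 8 and 6 UMIs in all. The 6 oligodendrocyte markers summed to 264 and 361 CPM without and 411 and 556 CPM with inhibitors, 2 were tested and both were lower, and Mog, which the rule also limits, and Mag had 2 and 4 UMIs. In what share these UMIs belong to the ependymal cells was not tested.

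The effect of the inhibitors was then compared between ependymal cells and 3 other classes of the same animals, as a difference of log2 fold changes in edgeR with the animal as a term. CPM in these comparisons are scaled by TMM within each pair of classes and so differ slightly from those above. Against astrocytes, 0% of 8786 genes differed. At an unadjusted p under 0.05 there were 362 with edgeR and 17 with DESeq2, which passed none, and the smallest edgeR adjusted p was 0.177. Left out in turn, library no inhibitor 1 gave 18 genes, inhibitor 1 and no inhibitor 2 gave 2 each and inhibitor 2 none. An effect shared by ependymal cells and astrocytes is not shown by this.

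Against microglia, 11 of 9671 genes differed (0.114%), 9 with a lower effect in ependymal cells. Jun had 2040 and 1339 CPM in microglia without inhibitors and 152 and 110 CPM with them, while in ependymal cells it had 151 and 82.0 against 97.0 and 98.1 CPM, a difference of effect of -3.45 ± 0.39 (log2, SE). Jund had 1416 and 1031 against 272 and 299.7 CPM in microglia and 435 and 462 against 502 and 507 CPM in ependymal cells (-2.23 ± 0.23). The inducible chaperone Hspa1a had 370 and 277 against 6.28 and 8.05 CPM in microglia and 63.9 and 26.1 against 46.4 and 59.97 CPM in ependymal cells, a difference of -5.79 ± 0.63. In all these genes the microglial groups lay far apart and the ependymal ones overlapped or lay close together. Hspa1a and its near-identical copy Hspa1b share sequence, so their split of reads is uncertain.

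The transcription factor Klf2, Dusp1, Hspa1b and the histone genes Hist1h1c and Hist1h4i differed in the same direction, by -4.00, -4.13, -4.94, -1.68 and -2.23. Klf2, Dusp1 and Hspa1b had only 25, 38 and 42 UMIs in the ependymal cells of all libraries. Hspa1b and Hist1h4i had 95 and 83 UMIs in microglia, where Hspa1b had 0 and 2.68 CPM with inhibitors. Of the 25 consensus genes 23 were tested in this comparison and 8 of them were among the 11. In the other direction, Meg3 differed by 1.52 and 6330403K07Rik by 2.02. Meg3 had 528 and 511 against 515 and 420 CPM in ependymal cells, and 24.9 and 25.5 against 98.4 and 37.6 CPM in microglia. The difference of 6330403K07Rik rested on library no inhibitor 2, with 1107 CPM there against 119.9 to 174 CPM in the other ependymal libraries. In that library 163 of its 297 ependymal UMIs came from 1 cell, and without the library the difference was 0.18 and was not called. The count of 11 was 5 without library inhibitor 1, 6 without inhibitor 2, 12 without no inhibitor 1 and 13 without no inhibitor 2, and DESeq2 gave 4. The classes differed in depth, with 187 against 3342 cells.

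**Figure D5:**
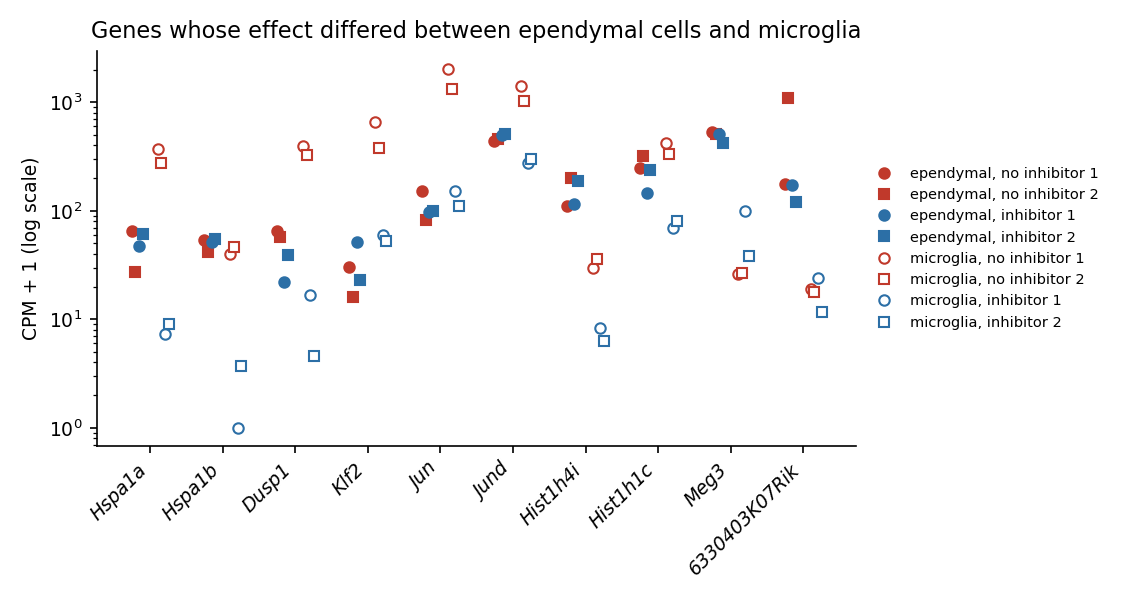
CPM + 1 (log scale) in each library of ependymal cells (filled) and microglia (open) for 10 of the 11 genes whose effect differed between them (red, no inhibitor; blue, inhibitor; circles and squares are replicates 1 and 2). For Jun, the open red points at 2040 and 1339 CPM stand far above the open blue ones at 152 and 110 CPM, while the filled points lie together between 82.0 and 151 CPM.

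Against choroid plexus cells, the other epithelium of the ventricles, 24 of 3433 genes differed (0.699%), 19 with a lower effect in ependymal cells. With scaling by total UMIs alone it was 36 genes, of which 12 were lower and 16 were shared with the first fit, so the balance of directions depends on the scaling. Clu had 2746 and 3591 against 4012 and 3945 CPM in ependymal cells and 2387 and 2759 against 1451 and 1023 CPM in choroid plexus cells, a difference of -1.35 ± 0.18 (log2, SE). Apoe differed by -0.91, with 3397 and 4350 against 2903 and 2268 CPM in the choroid plexus class. For Clu and Apoe the ependymal values lay lower without inhibitors and the choroid plexus values higher.

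Of the other listed genes, Itm2b, Cd9, Ptgds and 1500015O10Rik differed by -1.22, -1.35, -1.45 and -0.76. The 4 with the largest differences were Tnr (-7.37), Marcks (-4.62), Fn3krp (4.4997) and Hmgb2 (-4.07), and they rested on 22 to 52 UMIs in the choroid plexus cells. Oligodendrocyte markers summed to 681 to 2099 CPM in that class and their part in these values was not tested. The choroid plexus class held 28 to 54 cells a library. Without library inhibitor 2 only 1 gene differed, without no inhibitor 1 it was 7, without inhibitor 1 14 and without no inhibitor 2 27, and DESeq2 gave 2 genes and the fit with no filter on low counts 6.

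Among the ependymal cells themselves, the 10 genes most variable between cells of a library, by variance over mean of UMIs after thinning 173 cells to 1000 UMIs, were Hbb-bs, Ttr, Malat1, Apoe, Cst3, mt-Co3, Dbi, mt-Co1, 6330403K07Rik and mt-Atp6. Hbb-bs led with a mean ratio of 31.5, of which library no inhibitor 2 gave 123 and the others at most 1, and 64.2% of its thinned UMIs were in 1 cell. Ttr followed with 22.6, and 24.1% of its UMIs were in 1 cell. Malat1 had 18.3, with 12.8 to 24.6 in the 4 libraries and at most 2.47% of its UMIs in any cell, so its variation was spread over many cells. Apoe, with 6.87, and Dbi, with 5.93, were likewise spread, at 2.65% and 1.97% in the cell with most.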

How the data were processed

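Brains were perfused, digested with enzymes and loaded on the 10x Genomics platform, and per the labels 1 library was made from each of 4 animals. The authors produced UMI counts per gene and cell with Cell Ranger 3.0.0 on mm10 (submitters' processing notes), and the deposited matrices hold these counts for 31053 genes and 12487 barcodes. Cells with under 400 genes or over 20% mitochondrial UMIs were left out. Ependymal, choroid plexus, astrocyte and microglial cells were picked by detected marker genes, and the other cells are all cells outside the ependymal rule. The members and lists were chosen with earlier results of these data known.

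UMIs were summed per animal over the cells of a class and tested with edgeR 4.0.16 (filterByExpr, TMM, robust quasi-likelihood test, R 4.3.3). Calls needed both an adjusted p (Benjamini-Hochberg) under 0.05 and a log2 fold change beyond 0.58 in either direction. Effects were compared between classes by an interaction term with the animal in the model. DESeq2 1.42.0, other scaling, filters and gates, cell sets, the replicate block and leaving out each library were alternatives. Shares and median UMIs were compared by an exact permutation test. No doublet caller was run, and free RNA was not removed, so shares in other classes stand beside shares in ependymal cells. Fold changes are no inhibitor over inhibitor. SE is the log2 fold change divided by the square root of the F statistic.

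Genes named are the 8 genes of the rule, members of the lists, the 20 highest ratios to other cells, the 10 smallest unadjusted p among genes whose groups did not overlap, the 5 largest called differences between classes and the 10 most variable genes. A few genes that this rule would name are not reported here, and counts and list medians include them.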

Additional observations from a re-analysis of the deposited data

Results flagged for a closer look

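Results were set apart here where the effect of the inhibitors in ependymal cells differed from that in another class of the same animals by the test of the difference itself. Each value is the log2 fold change, no inhibitor over inhibitor, in ependymal cells minus that in the other class, called at an edgeR adjusted p under 0.05.

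Against microglia 11 genes were called. Those named here were Hspa1a at -5.79, Hspa1b at -4.94, Dusp1 at -4.13, Klf2 at -4.00, Jun at -3.45, Jund and Hist1h4i at -2.23 each and Hist1h1c at -1.68, with Meg3 at 1.52 and 6330403K07Rik at 2.02 on the other side. The value of 6330403K07Rik went with library no inhibitor 2, where 163 of 297 UMIs were in 1 cell, and was 0.18 and not called without that library. Klf2, Dusp1, Hspa1a and Hspa1b had only 25 to 42 UMIs each in the ependymal cells.

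Against choroid plexus cells 24 genes were called, 19 with a lower and 5 with a higher effect in ependymal cells, and only some of them are named. Those were Tnr at -7.37, Marcks at -4.62, Hmgb2 at -4.07, Ptgds at -1.45, Clu and Cd9 at -1.35 each, Itm2b at -1.22, Apoe at -0.91 and 1500015O10Rik at -0.76, with Fn3krp at 4.4997 among the genes on the other side. Tnr had 0 UMIs in 3 of the 4 choroid plexus libraries, so its fitted difference depends on the prior count.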

How the results depend on the processing

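None of the called genes named above changed sign under an alternative tried, but many lost the call. Of their values under the alternatives, 105 were still called and 78 were not, counting a few genes not reported here. For the called genes not named, most of them in the comparison with choroid plexus cells, the sign under the alternatives is not reported here. With 2 animals a group the exact permutation tests cannot pass 0.05, and most list members had too few UMIs for a small change to be detected. The difference between the groups in the share of ependymal cells and in their median UMIs moved by less than the spread between replicates under every alternative tried, although the shares themselves fell to 0.579 to 1.18% without cells with any choroid plexus or other-type gate gene. Of the list medians, 142 values under alternatives moved by less than the spread between replicates and 37 by more.

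The count of 0 genes called in ependymal cells became 1 (Gm21149) without cells over 2 times the median UMIs and 0 to 29 when 1 library was left out. Replicate numbers occur in both groups, but same-numbered animals deviated together only weakly (correlation 0.0584 over 2127 genes). With only 2 pairs this is a single comparison, so it cannot show whether the animals were paired. With the replicate block, 6 genes were called, Hbb-bs, Hba-a1, Hba-a2, 6330403K07Rik and Gm21149 higher and C3 lower without inhibitors. The haemoglobin genes and 6330403K07Rik were high in library no inhibitor 2 alone. With the block the median of the spokes was 0.083.

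With 1 library left out, list medians ran from -0.48 to -0.11 for the transcription factors, -0.045 to 0.029 for the spokes, -0.093 to 0.087 for the other axonemal genes, -0.043 to 0.089 for the surface genes, -0.25 to 0.38 for planar polarity, -0.17 to 0.13 for secreted proteins, -0.043 to 1.13 for immediate-early genes, -0.20 to 0.23 for the consensus list, -0.15 to 0.48 for the list chosen on these libraries, -0.31 to 0.79 for choroid plexus markers and -0.33 to 0.55 for astrocyte markers. With the stricter gate the transcription factors had -0.59. With the looser gate the other axonemal genes had -0.089 and the choroid plexus markers 0.58. With no filter on low counts, medians were 0.071 for immediate-early genes, 0.030 for the consensus list, 0.95 for the list chosen on these libraries and 0.20 for choroid plexus markers. Without cells over 2 times the median UMIs the other axonemal genes had 0.050 and the consensus list -0.021. Without cells with any choroid plexus or other-type gate gene, an alternative chosen after seeing the data, the spokes had -0.098 and the other axonemal genes 0.086. The causes were not tested.

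Differences of effect numbered 2 with DESeq2 and 6 with no filter against choroid plexus cells, and 4 with DESeq2 against microglia. With scaling by total UMIs they numbered 36 against choroid plexus cells, of which 12 had a lower effect in ependymal cells, where the first scaling gave 19 of 24. With 1 library left out they numbered 1 to 27 against choroid plexus cells, 0 to 18 against astrocytes and 5 to 13 against microglia.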

Other observations

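Single cells held a large part of the UMIs of some genes. Complement C3 had 12 of its 22 UMIs of library inhibitor 2 in 1 cell, without which it had 62.4 CPM there against 55.4 CPM in all cells of inhibitor 1, and Ttr had 338 of 602 UMIs there in 1 cell. The 5 erythrocyte genes gave 13138 CPM in library no inhibitor 2, and 5708 CPM without the cell that held 1905 of their UMIs, still above the 92.3 to 324 CPM of the other libraries, and 43 of the 54 cells had a UMI of them. In another pattern, not examined by cell, the keratin gene Krt15 had 86.0, 107 and 92.3 CPM in libraries no inhibitor 1, no inhibitor 2 and inhibitor 1 and 213 CPM in inhibitor 2.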
